A study of Mus musculus with 7 samples.

Results

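The genes described here are 45 mouse genes of the mesenchymal program: transcription factors of epithelial-mesenchymal transition (EMT), interstitial collagens, fibulins and other matrix glycoproteins, matrix remodelling enzymes and fibroblast markers. The rule that chose them lists gene names and uses no measured value, though earlier results of these data were known when it was written. All 45 symbols were found among the 54446 genes of the count table. Of these, 44 had reads in at least 1 library, 32 passed the filter on low counts and were tested, and 13 were too low to test.

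EMT is the process in which epithelial cells give up cell-cell junctions and take on mesenchymal features. It is driven by transcription factors of the Zeb, Snail and Twist families and induced by ligands of the TGF-beta family, which signal through receptor kinases and Smad proteins. Interstitial matrix, made of fibrillar collagens, fibronectin and associated glycoproteins and crosslinked by lysyl oxidases, is laid down in the injured pancreas mainly by stellate cells and fibroblasts.

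The measurements are poly(A)-selected RNA sequencing of pancreatic spheroids, which are 3-dimensional cultures, from C57BL/6J wild-type mice. The labels name the cells as pancreatic epithelial cells. The untreated group had 3 libraries (01 to 03) and the post-caerulein group, from mice treated earlier with caerulein, had 4 (01 to 04). Caerulein is an analogue of the gut hormone cholecystokinin that overstimulates acinar cells and causes pancreatitis. All libraries shared a growth medium with epidermal growth factor, cholera toxin, hydrocortisone, insulin-transferrin-selenium, bovine pituitary extract and a serum supplement. The labels used here do not give the caerulein schedule, the age or number of mice or the passage of the cultures. They do not say whether libraries of a group came from separate animals, so p-values reflect only how much these particular libraries vary, and part of that variation may be technical.

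Total counts ran from 34783738 to 46744497 per library, and levels below are CPM (counts scaled to library size, with TMM), or RPKM, the same value divided by exonic length in kilobases, where genes are compared with each other. Libraries did not differ equally within groups. The biological coefficient of variation was 8.44% between untreated 01 and 02 and 5.74% between post-caerulein 02 and 03, and at least 21.9% for every other pair of libraries. For untreated 03 it was 47.9% and 47.2% to the other untreated libraries and 23.7% to post-caerulein 04. The authors' deposited comparison was recovered from the count table, within 3.2e-08 on the log2 scale and in all 1023 of its calls, when the fit held a term separating untreated 03 and post-caerulein 04 from the other 5 libraries. No label says what this term stands for. It is called the block here, its parts being the 5-library part (untreated 01 and 02, post-caerulein 01 to 03) and the 2-library part (untreated 03, post-caerulein 04).

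Markers of ductal epithelium (Krt19, Krt7, Krt8, Krt18, Epcam and 5 others) summed to between 13623 and 15493 CPM in the untreated and between 14331 and 21407 CPM in the post-caerulein libraries. Keratins made up most of this sum, and single ductal markers varied. The chloride channel Cftr was at 39.1, 38.5 and 1.02 CPM in the untreated group and between 4.67 and 4.76 CPM in the post-caerulein group. The ductal factor Sox9 was at 10.9, 12.9 and 61.7 CPM and between 37.1 and 51.7 CPM. In the 5-library part described below, Cftr fell by 3.01 on the log2 scale and Sox9 and Spp1 were 1.93 and 1.88 higher (edgeR adjusted p = 5.57e-05, 0.00121 and 0.00138). Of 14 fibroblast and stellate cell markers outside the 45 genes, 12 stayed below 1 CPM in every library. Their sum was 2.55 to 3.36 CPM in the untreated group and 3.70 to 7.27 CPM in post-caerulein libraries, most of it Col15a1. Without Col15a1 it was 0.533 to 1.31 CPM over all libraries, and the library with most interstitial collagen, untreated 03, was at 0.801 CPM. The authors' deposited table gives Col15a1 as higher, with a log2 fold change of 1.27 and a false discovery rate of 0.015 (4.49% of its genes are higher). Only 2 of the 14 were tested here. Of these 2, 1 was higher in the 5-library part (7.35% of all genes), and 1 was higher in every post-caerulein library (4.67%). None of the 14 was at 0 reads in all libraries. Leukocyte markers without Cd68, a lysosomal protein, summed to 0.619 to 1.75 CPM. In bulk RNA, fewer cells of a type and less RNA per cell cannot be told apart.

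Compared per length, the 45 genes spanned more than 4 orders of magnitude. The matrix glycoprotein Fbln2 (fibulin-2) had the highest mean level of the 45, 316 RPKM (range 79.7 to 836 over the 7 libraries), followed by the hyaluronan receptor Cd44 with 134 RPKM (104 to 178). Serpine2, Mmp14, Tgfb1 and Fn1 had means of 43.1, 35.7, 33.6 and 23.6 RPKM. The main interstitial collagen genes were far lower, with means of 0.421 RPKM for Col1a1, 0.284 RPKM for Col1a2 and 0.205 RPKM for Col3a1. Col27a1, a fibrillar collagen best known from cartilage, had the highest mean of the 9 collagens, 2.53 RPKM. The cytoskeletal protein Vim (vimentin), a common mesenchymal marker, had a mean of 0.249 RPKM. At the bottom of the plot of level per length lay Twist2 at 0 and, above it, Thy1, Postn, Lum and Tgfbi, with means of 0.00904 to 0.0172 RPKM.

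**Figure D1:**
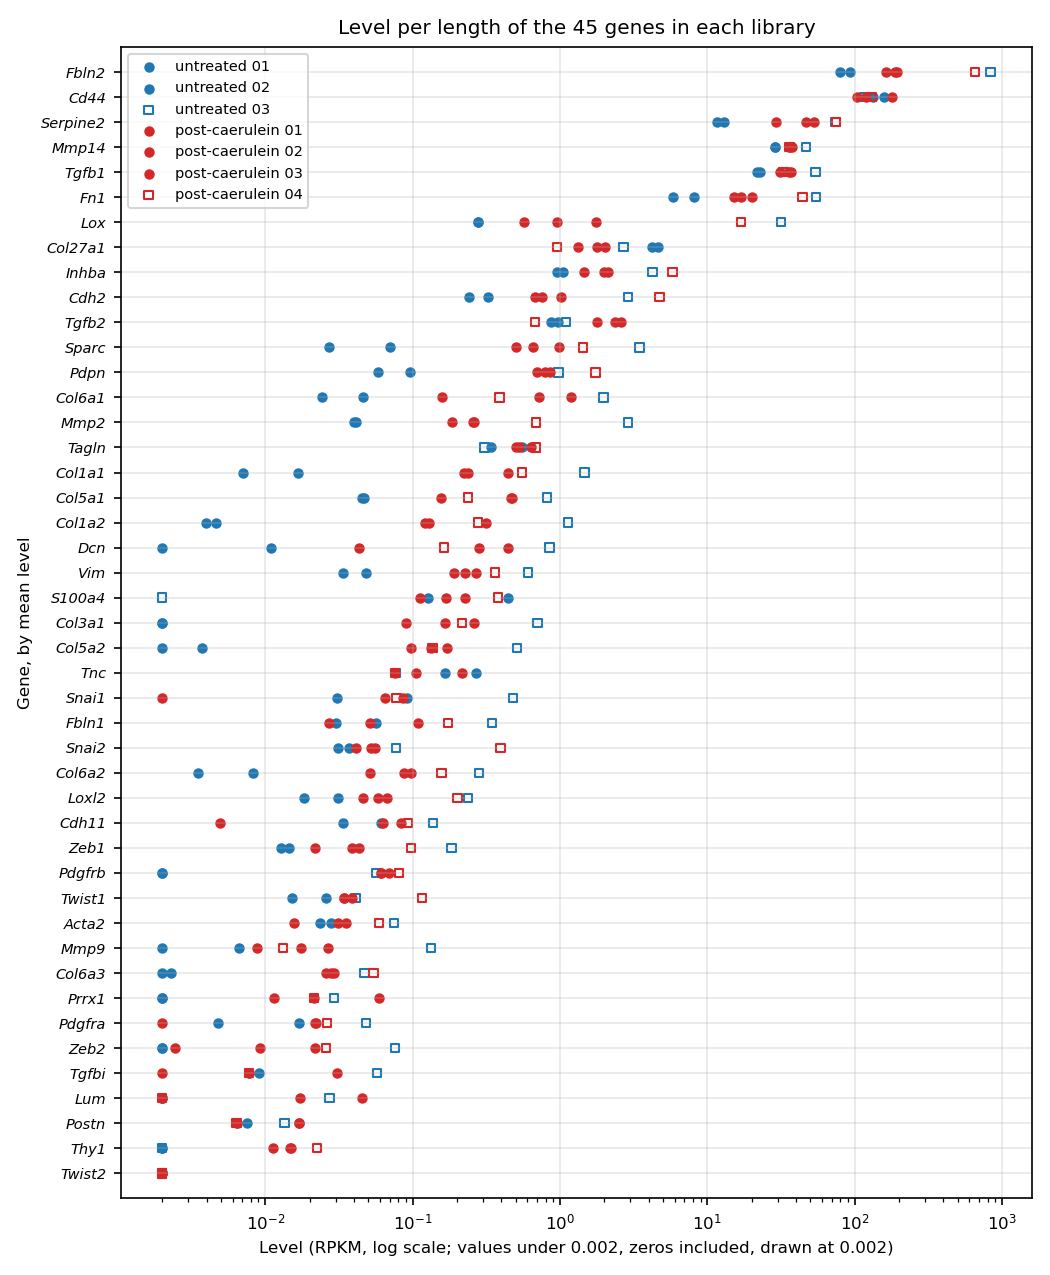
Level of each of the 45 genes per length (RPKM, log scale) in each library, genes ordered by mean. Blue marks are untreated and red marks post-caerulein libraries, and open squares are untreated 03 and post-caerulein 04. Fbln2 (mean 316 RPKM) and Cd44 (134 RPKM) lead, and for many genes the open squares lie to the right and untreated 01 and 02 to the left.

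Between all untreated and all post-caerulein libraries, no member passed the test on the group alone (edgeR quasi-likelihood test, adjusted p under 0.05, where 0% of 16438 genes passed). At an unadjusted p under 0.05 there was 1 member, Col27a1, against 9.5% of all genes, and DESeq2 and edgeR's likelihood ratio test each passed this gene alone. The median log2 difference was -0.09 over the 32 members and -0.02 over all genes, with 14 members positive and 18 negative. With the block in the fit, 1 of the 32 passed, Col27a1, which was lower (1.53% of all genes passed, 0.876% as lower and 0.651% as higher). At an unadjusted p under 0.05 in that fit there were 8 members, against 17.5% of all genes. The median over the members was then 0.90, with 27 of 32 positive, and over all genes -0.00. Groups did not overlap for 2 tested members, against 9.32% of all genes. Col27a1 was lower in every post-caerulein library (4.65% of all genes were) and Pdgfrb higher in every one (4.67%).

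Col27a1 was at 35.5, 32.1 and 20.6 CPM in the untreated libraries and at 10.1, 15.5, 13.6 and 7.25 CPM in the post-caerulein libraries. The lowest untreated library was above the highest post-caerulein library, and in each part of the block the post-caerulein side was lower. Group means were 29.4 ± 7.83 CPM (SD, n = 3) and 11.6 ± 3.65 CPM (SD, n = 4). With the block, Col27a1 fell by 1.41 on the log2 scale (SE 0.16, edgeR adjusted p = 0.0205). On the group alone the difference was -1.34 (SE 0.29, edgeR adjusted p = 0.231). The call with the block was lost without untreated 01, without untreated 02 or without post-caerulein 03, where no member passed. It was also lost when untreated 01 was summed with 02 and post-caerulein 02 with 03.

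The 5-library part shows a different pattern, which the all-library comparison does not carry. There, 22 of 29 tested members were higher in post-caerulein 01 to 03 than in untreated 01 and 02, 1 was lower and 6 did not pass (edgeR; 13.8% of 16276 genes passed, 7.35% as higher and 6.46% as lower). The median log2 difference over the 29 members was 2.01, and over all genes 0.01. In the 2-library part, with 1 library a group and no test, post-caerulein 04 was below untreated 03 for 24 of 32 members (49.6% of all genes), with a median log2 ratio of -0.73. Of the 22 members higher in the 5-library part, 16 were below untreated 03 in post-caerulein 04 (3.55% of all genes were both). The other 6 were above untreated 03. Of all genes, 1196 were higher in the 5-library part, and 578 of these were below untreated 03 in post-caerulein 04. The 16 of 22 members compare with these 578 of 1196 genes, not with the 3.55%. The 5-library count fell with the close pairs summed (untreated 01 with 02, and post-caerulein 02 with 03). It also fell without untreated 01 and without untreated 02. Each of these settings leaves 1 untreated library, so the closeness of the pairs and the smaller number of libraries cannot be told apart.

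The ordering of libraries was shared by many members. Untreated 03 was the highest of the 7 libraries for 21 of the 32 tested members (23.3% of all genes). Untreated 01 and 02 were both below the other 5 libraries for 25 (14.6% of all genes). Untreated 03 and post-caerulein 04 were both above the other 5 for 18 (17.9% of all genes). Msln (mesothelin), a mesothelial antigen that some epithelial cells also make, moved in the same order. It was at 1468, 1716 and 5013 CPM in the untreated group and at 2324, 2255, 2245 and 4219 CPM in the post-caerulein group. The other 5 mesothelial markers together summed to 0.970 to 3.86 CPM over all libraries, with Wt1 at no more than 0.111 and Upk3b at no more than 0.250 CPM. Cd68 was highest in untreated 03 too, at 97.9 CPM against 11.7 to 35.0 CPM elsewhere. The part of Msln-reading or Cd68-reading cells in the members' values was not tested.

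The 7 EMT transcription factors were at low levels, at most 1.07 CPM in any library. Zeb1 and Zeb2, repressors of E-cadherin, were the only factors tested. Both peaked in untreated 03, Zeb2 at 0.868 CPM. Zeb1 had a log2 difference of 0.24 with the block (edgeR adjusted p = 0.874) and Zeb2 one of 0.38 (adjusted p = 0.905). Snai1, Snai2, Twist1 and Prrx1 stayed below 1 CPM, with maxima of 0.779, 0.799, 0.189 and 0.583 CPM. None of the factors was tested in the 5-library part. There, Prrx1 had 0 reads in untreated 01 and 02 against 35 in post-caerulein 01 to 03, Zeb2 0 against 15 and Zeb1 7 against 23. Snai1 had 9 against 10 reads, Snai2 6 against 12 and Twist1 3 against 7. Without the low-count filter Prrx1 and Zeb2 passed as higher in that part. Twist2 had 0 reads in every library, which allows at most 0.0841 CPM in any of them. The 3 counts behind this limit cover counting error only, as do the counting intervals below.

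Among the mesenchymal surface and cytoskeletal genes, Cdh2 (N-cadherin), which replaces E-cadherin in the cadherin switch of EMT, was at 1.19, 1.60 and 14.3 CPM in the untreated libraries. Post-caerulein libraries had 3.76, 5.05, 3.37 and 23.5 CPM of Cdh2. Post-caerulein 04 and untreated 03 stood above the rest, and within each part of the block post-caerulein was higher. Cdh2 differed by 1.26 with the block (SE 0.25, edgeR adjusted p = 0.0624) and was 1.56 higher in the 5-library part (SE 0.29, adjusted p = 0.0155). The epithelial E-cadherin gene Cdh1, for comparison, lay between 1665 and 2814 CPM.

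Cd44, present in ductal cells as well as in mesenchyme, was at 755, 891 and 651 CPM in untreated libraries and at 1007, 676, 588 and 736 CPM in post-caerulein libraries. The groups overlapped throughout, and the log2 difference with the block was -0.03 (SE 0.20, edgeR adjusted p = 0.957). Vim had 0.0743, 0.105 and 1.33 CPM in the untreated group and 0.421, 0.499, 0.590 and 0.799 CPM in post-caerulein libraries. It was 2.46 higher in the 5-library part (SE 0.45, edgeR adjusted p = 0.015), from 8 reads against 61, while post-caerulein 04 was below untreated 03. Cdh11, a mesenchymal cadherin, ranged from 0.0280 to 0.779 CPM with overlapping groups, and S100a4 did not exceed 0.223 CPM.

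TGF-beta ligands were read in every library. Tgfb1 was at 47.6, 49.2 and 118 CPM in the untreated group and at 67.4, 78.3, 80.6 and 71.4 CPM in post-caerulein libraries. The 4 post-caerulein values lay between those of untreated 01 and 02 below and untreated 03 above. The difference with the block was 0.24 (SE 0.26, edgeR adjusted p = 0.702), and in the 5-library part Tgfb1 was 0.66 higher (SE 0.10, adjusted p = 0.00927).

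Tgfb2, a second ligand, had 4.56, 5.06 and 5.70 CPM in untreated libraries and 13.5, 12.2, 9.29 and 3.53 CPM in post-caerulein libraries. The 3 post-caerulein libraries of the 5-library part were above all untreated ones, and post-caerulein 04 was below them all. Tgfb2 rose by 1.30 in the 5-library part (SE 0.20, edgeR adjusted p = 0.00875) and differed by 0.71 with the block (SE 0.40, adjusted p = 0.415).

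Inhba, which encodes the activin A subunit, another ligand of the family, was at 6.14, 6.75 and 27.1 CPM against 13.5, 12.8, 9.35 and 37.0 CPM. Post-caerulein was higher within each part, and the groups overlapped through untreated 03. Its difference with the block was 0.75 (SE 0.17, edgeR adjusted p = 0.0793) and in the 5-library part it was 0.90 higher (SE 0.20, adjusted p = 0.028).

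Serpine2 (protease nexin-1), a secreted inhibitor of serine proteases, had 25.9, 28.7 and 164 CPM in untreated libraries. Post-caerulein libraries had 64.3, 117, 103 and 164 CPM of it. Untreated 03 and post-caerulein 04 were level at the top, while post-caerulein 01 to 03 were above untreated 01 and 02. Serpine2 was 1.82 higher in the 5-library part (SE 0.26, edgeR adjusted p = 0.00642), with 1.27 under the block (SE 0.39, adjusted p = 0.154). Tgfbi, a matrix protein named for its induction by TGF-beta, did not exceed 0.156 CPM and was not tested.

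The interstitial collagens split into Col27a1 and the other 8. In the 5-library part all 8 of Col1a1, Col1a2, Col3a1, Col5a1, Col5a2, Col6a1, Col6a2 and Col6a3 passed as higher in post-caerulein libraries, and Col27a1 as lower (-1.35, SE 0.18, edgeR adjusted p = 0.00536). With the block, the 8 had log2 differences of 1.38 to 2.17 and none passed. The 8 were at low levels, under 9 CPM in every library, and their sum without Col27a1 was 0.718, 0.675 and 39.3 CPM in the untreated group and between 5.75 and 16.5 CPM in post-caerulein libraries.

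Col1a1, the major chain of type I collagen, is given in full although its level lies under the minimum used for naming, as are Col3a1, Col5a1, Sparc, Mmp2, Pdpn and Vim. These were chosen after their values were seen. Col1a1 was at 0.0990, 0.0422 and 8.70 CPM in untreated libraries and at 1.40, 2.64, 1.33 and 3.28 CPM in post-caerulein libraries. Untreated 03 held the highest and untreated 01 and 02 the lowest values. Untreated 01 and 02 together had 6 reads and post-caerulein 01 to 03 had 208, a ratio of 25.5 in CPM (95% exact counting interval 11.5 to 70.4; edgeR adjusted p = 0.0045).

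Col3a1, the chain of type III collagen, had 0, 0 and 3.92 CPM in the untreated group and 0.505, 1.44, 0.927 and 1.20 CPM in post-caerulein libraries. Against the limit of 3 counts over untreated 01 and 02, post-caerulein 01 to 03 were at least 28.0-fold higher. Untreated 03 was again the highest library. Col5a1, a chain of the type V collagen that nucleates fibrils, had 0.396, 0.380 and 6.87 CPM against 1.32, 3.91, 3.96 and 2.00 CPM. It was 3.00 higher in the 5-library part (SE 0.57, edgeR adjusted p = 0.0173), and post-caerulein 04 was below untreated 03.

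For Col1a2 the 5-library part had 2 untreated against 117 post-caerulein reads, a ratio of 43.1 (95% exact counting interval 11.7 to 360). For Col5a2 it had 1 against 106 reads, a ratio of 78.1 (13.7 to 3114). The type VI chains Col6a1, Col6a2 and Col6a3, which form beaded filaments, had ratios of 19.3 (11.1 to 36.6), 14.2 (4.64 to 71.1) and 13.3 (3.42 to 114). Col6a3 had the same sign in the 2-library part, with a log2 ratio of 0.20. The other 7 had lower values in post-caerulein 04 than in untreated 03, with log2 ratios of -0.84 to -2.34.

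**Figure D2:**
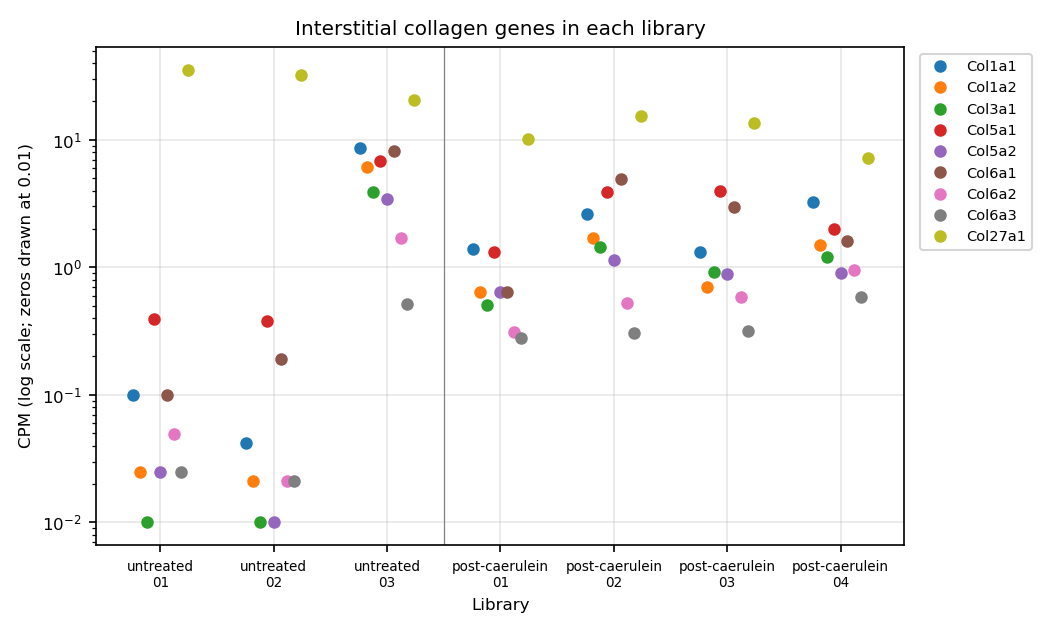
CPM (log scale, zeros drawn at 0.01) of the 9 interstitial collagen genes in each of the 7 libraries; each colour is a gene. Col27a1 lies lower in every post-caerulein library than in any untreated one, while the other 8 are lowest in untreated 01 and 02, and 7 of the 8 are highest in untreated 03.

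The promoters of Col3a1, Col5a1 and Col27a1 are printed because the first 2 genes were higher and the last lower in the 5-library part. They were chosen after values and motif matches were seen. Each is the 250 bases before the RefSeq transcription start (GRCm38.p6), plus strand, 5′ to 3′. The lines are Col3a1 at chr1:45311288-45311537, Col5a1 at chr2:27886175-27886424 and Col27a1 at chr4:63215162-63215411, and capitals mark the Smad box, CAGACA or its reverse complement TGTCTG.
Col3a1: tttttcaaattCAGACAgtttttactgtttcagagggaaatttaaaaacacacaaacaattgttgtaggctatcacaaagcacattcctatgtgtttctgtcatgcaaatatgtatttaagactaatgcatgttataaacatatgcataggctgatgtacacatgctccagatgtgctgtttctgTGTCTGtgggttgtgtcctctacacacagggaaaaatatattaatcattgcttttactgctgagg
Col5a1: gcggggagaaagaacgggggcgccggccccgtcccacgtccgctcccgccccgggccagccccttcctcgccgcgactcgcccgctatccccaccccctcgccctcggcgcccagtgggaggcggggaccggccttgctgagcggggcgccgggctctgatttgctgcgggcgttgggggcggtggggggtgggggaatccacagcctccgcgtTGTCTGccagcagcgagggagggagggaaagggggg
Col27a1: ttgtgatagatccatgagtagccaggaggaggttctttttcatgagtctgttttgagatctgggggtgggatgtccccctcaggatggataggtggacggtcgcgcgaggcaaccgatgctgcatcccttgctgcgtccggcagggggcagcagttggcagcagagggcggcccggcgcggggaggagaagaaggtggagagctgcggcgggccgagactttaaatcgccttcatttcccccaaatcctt

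In these windows Col3a1 held 2 Smad boxes, Col5a1 held 1 and Col27a1 none. GC content was 35.2%, 76.4% and 59.6%, beside a median of 52.4% over all promoters. RefSeq promoters were given for 29 of the 45 genes, 36 in number. A Smad box was found in 27.8% of the 36 and in 17.1% of all 32851 promoters of this length. The 9 genes with a Smad box were Acta2, Col1a2, Col3a1, Col5a1, Fbln1, Sparc, Tgfb2, Tnc and Twist1. Of these, Col1a2, Col3a1, Col5a1, Sparc and Tgfb2 were higher in the 5-library part. Acta2, Fbln1, Tnc and Twist1 did not pass or were not tested there. Serpine2, Vim, Pdpn, Fbln2, Tgfb1, Inhba, Mmp14, Col6a1, Col6a2 and Col6a3 were higher there too, and no Smad box was found in their promoters. The remaining members that were higher there had no promoter among the 36. A link between the boxes and the levels was not tested. The E-box bound by Zeb and Snail factors (CAGGTG or CACCTG) was in 2.78% of the 36 and 17.2% of all promoters, Snai1 being the only member gene with it. The AP-1 site (TGANTCA, which is its own reverse complement) was in 5.56% against 6.75%, and the TEAD site (CATTCC or GGAATG) in 13.9% against 12.6%. These are matches of letters on either strand, not binding sites, and several members have more than 1 promoter in the count.

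Among the matrix glycoproteins and proteoglycans, 4 of the 6 tested genes were highest in both libraries of the 2-library part. Fbln2, an elastic fibre and basement membrane protein, was at 381, 447 and 4001 CPM in untreated libraries. Post-caerulein libraries had 931, 902, 783 and 3129 CPM of Fbln2. Untreated 03 and post-caerulein 04 were several times above the rest, and post-caerulein 01 to 03 were all above untreated 01 and 02. The difference was -0.17 on the group alone (SE 0.90, edgeR adjusted p = 0.982), 0.65 with the block (SE 0.28, adjusted p = 0.289) and 1.10 in the 5-library part (SE 0.13, adjusted p = 0.00334).

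Fn1 (fibronectin), a ligand of integrins and a classical TGF-beta target, showed the same order. Its levels were 49.8, 68.8 and 464 CPM in the untreated group and 130, 170, 143 and 375 CPM in post-caerulein libraries. Fn1 was 1.34 higher in the 5-library part (SE 0.18, edgeR adjusted p = 0.00562), with 0.84 under the block (SE 0.33, adjusted p = 0.249). Sparc, a collagen-binding protein, had 0.0743, 0.190 and 9.43 CPM against 1.37, 2.69, 1.79 and 3.91 CPM. Untreated 03 was highest and the other untreated libraries lowest, and Sparc was 3.84 higher in the 5-library part (SE 0.53, edgeR adjusted p = 0.0059).

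Tnc (tenascin C), a glycoprotein of injured and developing tissue, ranged from 0.589 to 2.11 CPM and had a log2 difference of -0.54 with the block (SE 0.41, edgeR adjusted p = 0.573). Fbln1 ranged from 0.111 to 1.42 CPM. Dcn (decorin), a proteoglycan abundant in fibroblasts, reached 1.65 CPM in untreated 03, and had 1 read in untreated 01 and 02 against 60 in post-caerulein 01 to 03 (ratio 44.2, 95% exact counting interval 7.64 to 1775; edgeR adjusted p = 0.0563). Lum and Postn, further fibroblast matrix genes, did not exceed 0.111 and 0.0561 CPM.

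Of the crosslinking and proteolytic enzymes, Lox differed most between libraries. Lox, the lysyl oxidase that starts the crosslinking of collagen and elastin, was at 1.34, 1.33 and 153 CPM in the untreated group and 2.75, 8.49, 4.57 and 81.4 CPM in post-caerulein libraries. Untreated 03 was 114 times the mean of untreated 01 and 02, and post-caerulein 04 was 15.5 times the mean of post-caerulein 01 to 03. The difference was 2.01 in the 5-library part (SE 0.49, edgeR adjusted p = 0.0417) and 0.97 with the block (SE 0.67, adjusted p = 0.525). Loxl2, a related oxidase, ranged from 0.0990 to 1.29 CPM with both extremes in the untreated group.

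Mmp14 (MT1-MMP), a membrane-bound collagenase and the activator of pro-MMP2, was at 120, 120 and 196 CPM in the untreated group and 150, 157, 152 and 151 CPM in post-caerulein libraries. The 4 post-caerulein values lay close together, above untreated 01 and 02 and below untreated 03. Mmp14 was 0.38 higher in the 5-library part (SE 0.08, edgeR adjusted p = 0.0226) and differed by 0.14 with the block (SE 0.14, adjusted p = 0.698). Mmp2 (gelatinase A) had 0.124, 0.127 and 8.88 CPM against 0.785, 0.805, 0.569 and 2.12 CPM, with the same order of untreated libraries, and was 2.51 higher in the 5-library part (SE 0.40, edgeR adjusted p = 0.00999). Mmp9 (gelatinase B) did not exceed 0.423 CPM.

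**Figure D3:**
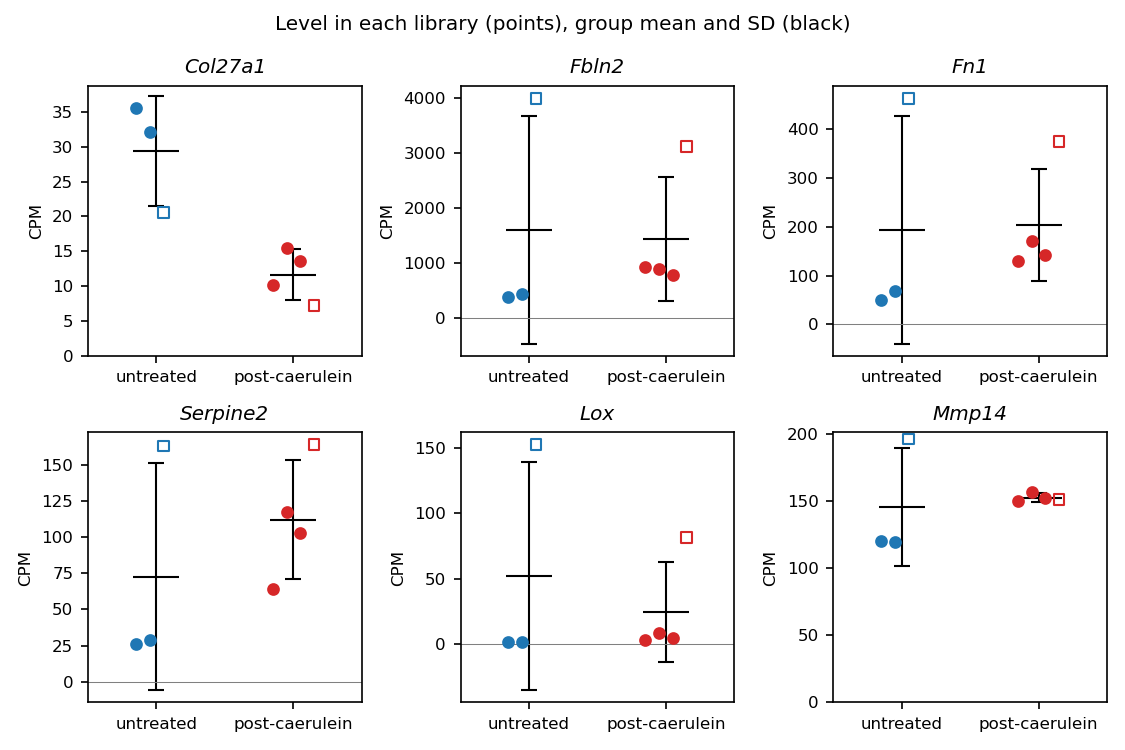
CPM in each library of Col27a1, Fbln2, Fn1, Serpine2, Lox and Mmp14, with the group mean and SD in black (n = 3 untreated, n = 4 post-caerulein); open squares are untreated 03 and post-caerulein 04. Col27a1 separates the groups, while in the other panels the untreated SD spans the post-caerulein mean; bars that reach below 0 show the size of the SD, and no value does.

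Of the 6 fibroblast and myofibroblast markers, 4 stayed below 1 CPM in every library, and Pdpn and Tagln exceeded it. Pdgfrb, the PDGF receptor of pericytes and fibroblasts, was at 0, 0 and 0.311 CPM in the untreated group and at 0.337, 0.333, 0.379 and 0.441 CPM in post-caerulein libraries. The groups did not overlap, but untreated 03 lay just under the lowest post-caerulein library. Post-caerulein 01 to 03 were at least 10.3-fold higher than untreated 01 and 02, which had 0 reads (42 reads against 0), and with the block Pdgfrb had an edgeR adjusted p of 0.227.

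Pdpn (podoplanin), a membrane mucin of fibroblasts, mesothelium and some epithelia, had 0.173, 0.105 and 1.78 CPM against 1.43, 1.55, 1.26 and 3.17 CPM. Post-caerulein was higher within each part, and untreated 03 overlapped the post-caerulein range. Pdpn was 3.36 higher in the 5-library part (SE 0.37, edgeR adjusted p = 0.00266) and differed by 2.31 with the block (SE 0.54, adjusted p = 0.0836). Tagln, an actin-binding protein of smooth muscle and myofibroblasts, lay between 0.489 and 1.09 CPM with overlapping groups. Acta2 (smooth muscle actin), Pdgfra and Thy1 did not exceed 0.133, 0.423 and 0.0420 CPM.

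Whether the group difference was unequal in the parts of the block was tested with an interaction term. It was more negative in the 2-library part for 14 of 32 members and more positive for none (edgeR, adjusted p under 0.05; 3.64% of all genes passed, 1.87% as lower and 1.77% as higher). The 14 were Vim, Tgfb1, Tgfb2, Col1a1, Col1a2, Col3a1, Col5a1, Col5a2, Col6a2, Fn1, Fbln2, Sparc, Mmp2 and Mmp14. For Fn1 the difference of differences was -1.62 (SE 0.32, edgeR adjusted p = 0.0467) and for Tgfb1 -1.36 (SE 0.19, adjusted p = 0.0187). For Col27a1 it was -0.13 (SE 0.34, edgeR adjusted p = 0.873). This test has 1 library a group in the 2-library part, whose spread is assumed to be that of the other part, and no member passed with the close pairs summed or without untreated 01 or 02. The plot of the difference in each part shows most members to the right of 0 and below it.

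**Figure D4:**
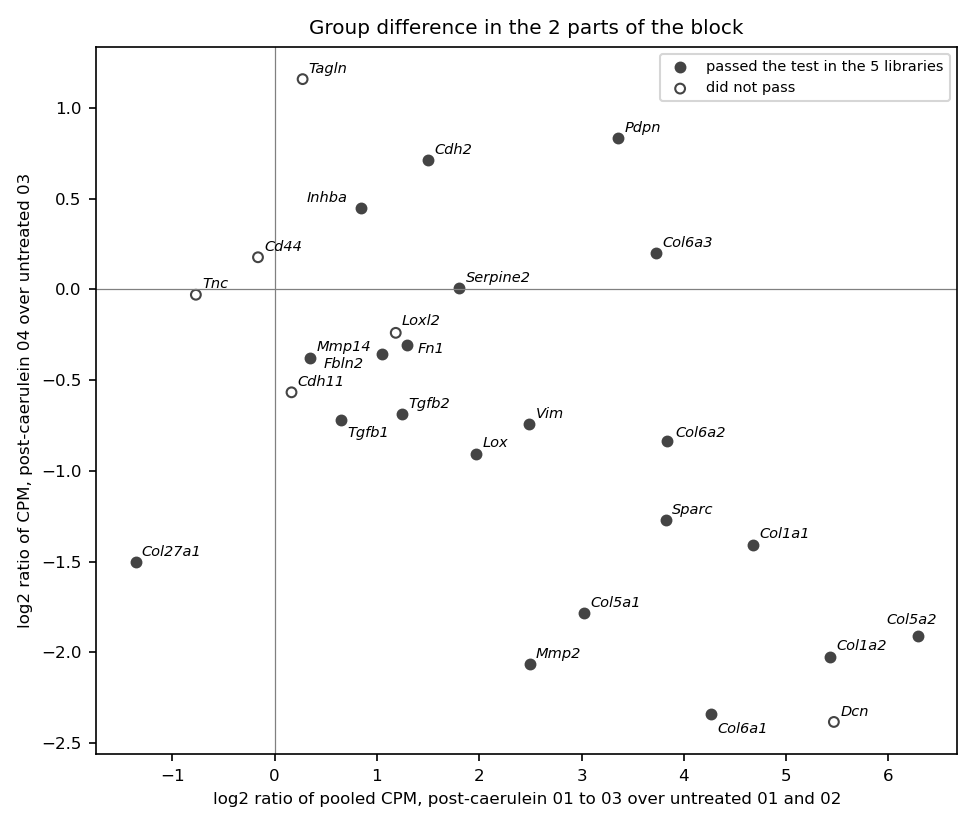
Log2 ratio of CPM between the groups in the 5-library part (horizontal, pooled libraries) and in the 2-library part (vertical, 1 library a group), for 27 members with reads in every pool. Filled points passed the test in the 5-library part; 18 of the 24 points right of 0 lie below 0, and Col27a1 is at the lower left.

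Genes that act around the members were taken from 4 lists outside the 45. With the block, 0.651% of all genes passed the quasi-likelihood test as higher and 0.876% as lower. Of 30 TGF-beta receptors, Smads and activators, none was higher and 1 was lower in the quasi-likelihood test. The authors' deposited table lists 29 of the 30, and of all its genes 4.49% are higher and 3.39% lower. It gives 4 of this list as higher, Thbs1, Itgb8, Ltbp1 and Itgb6, with log2 fold changes of 1.61, 3.52, 1.21 and 0.81, and 1 as lower. The lower gene was Smad7, the inhibitory Smad, which had 29.5, 29.9 and 25.8 CPM in the untreated group and 13.24, 13.96, 13.95 and 19.28 CPM in post-caerulein libraries. All untreated values were above all post-caerulein values, and Smad7 fell by 0.91 on the log2 scale (SE 0.15, edgeR adjusted p = 0.037). In this list 3 genes, Smad7, Acvr1b and Acvr2b, were lower in every post-caerulein library (4.65% of all genes were). Itgb8 was higher in every one (4.67%). Thbs1, an activator of latent TGF-beta and among the highest of this list by CPM, had a log2 difference of 1.60 (SE 0.44, edgeR adjusted p = 0.122) and was 2.13 higher in the 5-library part (adjusted p = 0.0118). The receptor Tgfbr2, also among the highest, had a log2 difference of 0.10 (edgeR adjusted p = 0.759). In the 5-library part 5 of the 30 were higher and 1 lower, beside 7.35% and 6.46% of all genes.

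Of 18 tested collagen processing and crosslinking genes none passed with the block in the quasi-likelihood test (5 at an unadjusted p under 0.05, against 17.5% of all genes). In the 5-library part 6 were higher and 1 lower, beside 7.35% and 6.46% of all genes. The authors' deposited table lists 15 of the 20 genes of this list. It gives 3 as higher and none as lower, beside 4.49% and 3.39% of all its genes. The 3 are Serpinh1, Tll1 and Adamts2, with log2 fold changes of 2.01, 2.17 and 1.72. P4hb, a subunit of prolyl hydroxylase and a disulfide isomerase, lay between 463 and 896 CPM. Ppib and P4ha1, the next by CPM, had block differences of 0.12 and -0.01. Serpinh1 (Hsp47), the collagen chaperone, was chosen after its values were seen. It had 9.93, 10.8 and 114 CPM in the untreated group and 54.2, 87.1, 76.1 and 107 CPM in post-caerulein libraries, in the order seen for the collagens, and was 2.83 higher in the 5-library part (SE 0.22, edgeR adjusted p = 0.000901). Of 22 tested metalloproteinases and inhibitors none passed with the block in the quasi-likelihood test (6 at an unadjusted p under 0.05, against 17.5% of all genes). Of 20 tested in the 5-library part 4 were higher and 2 lower, beside the same shares of all genes. The authors' deposited table lists 17 of the 28 genes of this list, beside the same shares of 4.49% and 3.39%. It gives Mmp24, Adam8 and Adam12 as higher, with log2 fold changes of 1.28, 0.63 and 0.71, and Mmp15 as lower, with -0.54. The highest 3, Mmp7, Adam9 and Mmp15, had block differences of -0.06, 0.16 and -0.56.

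Of the 26 genes of the epithelial program that EMT represses, 25 exceeded 1 CPM in at least 1 library. Of its 25 genes tested with the block none was higher and 1 lower. Of 26 tested in the 5-library part 1 was higher (Grhl1) and 5 lower, beside 7.35% and 6.46% of all genes. The 5 were Elf3, Ovol1, Ovol2, Grhl3 and Marveld3. The authors' deposited table lists 25 of the 26. It gives 3 as lower and none as higher, beside 3.39% and 4.49% of all its genes. The 3 are Elf3, Ovol1 and Ovol2, with log2 fold changes of -1.50, -1.25 and -0.86. The gene lower with the block was Elf3, an epithelial ETS factor, at 511, 510 and 191 CPM in the untreated group and 207, 137, 148 and 82.9 CPM in post-caerulein libraries. Post-caerulein was lower within each part, with post-caerulein 01 above untreated 03, and Elf3 fell by 1.51 on the log2 scale (SE 0.16, edgeR adjusted p = 0.0205). The keratins Krt8 and Krt18 and Cdh1, the highest of the list, had block differences of 0.51, 0.10 and 0.38, none of which passed. Groups did not overlap for 2 tested genes of the list, Cdh1 and Grhl1, both higher in every post-caerulein library (4.67% of all genes were). The list's median was -0.04 with the block.

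The authors' deposited table lists 21 of the 45 genes and gives 5 as higher and 1 as lower at a false discovery rate under 0.05 (of its 12983 genes 7.88% pass, 4.49% as higher and 3.39% as lower). In the authors' deposited table Pdpn has a log2 fold change of 2.37, Serpine2 of 1.29, Cdh2 of 1.27, Fn1 of 0.85 and Inhba of 0.76. Col27a1 has -1.40 in the authors' deposited table, with a false discovery rate of 2.54e-09. Col1a1, at 2.95, does not pass in the authors' deposited table (false discovery rate 0.0839). The authors' deposited table holds a likelihood ratio per gene, and the likelihood ratio test of edgeR run here with the block gave 5 members higher and 1 lower, with Pdgfrb in place of Fn1.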

How the data were processed

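Raw read counts per gene and library, with each gene's exonic length, were deposited by the authors as a featureCounts table, per the file headers. The counter was featureCounts 0.6.1 on GRCm38 (mm10), per the submitters' processing notes. Aligner and strand setting: not given in the sources used here; reads of overlapping or antisense genes can therefore not be separated. The authors' deposited table gives log2 fold changes, average log2 CPM, a likelihood ratio score, a p-value and a false discovery rate, made with edgeR 3.2.2, per the submitters' processing notes.

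Groups and replicate numbers came from the sample titles. Counts were filtered (filterByExpr, minimum count 10, minimum total 15), scaled by TMM and tested two-sided with edgeR 4.0.16 (quasi-likelihood, robust, Benjamini-Hochberg over all genes kept, adjusted p under 0.05) in R 4.3.3. The fit was on the group alone, and on the group with the block, which was recovered by refitting the deposited table. The 5-library fit has 3 residual degrees of freedom. The sign of each log2 difference is post-caerulein minus untreated. SE was the log2 difference divided by the root of the F statistic. CPM use TMM-scaled library sizes, with 3 counts worth 0.0631 to 0.0841 CPM. For low genes the fitted log2 difference depends on the prior count. The fit was also run on simulated counts with the same dispersion for all genes and libraries and an equal group difference in both parts. That setting differs from these libraries, so it checks the code only. Alternatives included limma-voom (limma 3.58.1) and DESeq2 1.42.0. Promoters were the RefSeq windows of GRCm38.p6.

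The members, their roles and the other lists were chosen with earlier results of these data known. Values in every library are given for members that passed, whose groups did not overlap or whose mean was at least 5 CPM. Of other lists, genes that passed with the block and the 3 highest by CPM are named, apart from a gene that is not reported here, and exceptions are stated. The fits of the 5-library part and of the difference between parts, and their alternatives, were partly chosen after seeing the data.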

Additional observations from a re-analysis of the deposited data

Results flagged for a closer look

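In post-caerulein 04 the CPM of 9 of the 32 tested members stood apart from the other 3 post-caerulein libraries by a gap above the 95% limit of Dixon's test for 4 values. Chance alone does so in about 1 of 20 groups where the 4 libraries are alike, and the members are not independent of each other. Post-caerulein 04 is not alike, being 1 side of the block. Over all genes its biological coefficient of variation to post-caerulein 01, 02 and 03 was 36.1%, 29.9% and 31.4%. The share of all genes with such a gap was not computed, so the count is not a result particular to the members. The values, with the nearest other post-caerulein value, were 23.5 against 5.05 CPM for Cdh2, 37.0 against 13.5 CPM for Inhba, 0.589 against 0.316 CPM for Col6a3 and 375 against 170 CPM for Fn1. They were 3129 against 931 CPM for Fbln2, 81.4 against 8.49 CPM for Lox and 1.09 against 0.365 CPM for Loxl2. For Mmp2 they were 2.12 against 0.805 CPM and for Pdpn 3.17 against 1.55 CPM. The untreated group, with 3 libraries, was not examined this way.

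The group difference was more negative in the 2-library part than in the 5-library part for 14 members by the interaction term in edgeR. On the log2 scale the difference of differences was -3.18 for Vim, -1.36 for Tgfb1, -1.97 for Tgfb2, -1.62 for Fn1, -1.43 for Fbln2, -5.09 for Sparc, -4.55 for Mmp2 and -0.73 for Mmp14. Among collagens it was -6.05 for Col1a1, -7.31 for Col1a2, -10.07 for Col3a1, -4.76 for Col5a1, -7.87 for Col5a2 and -4.53 for Col6a2. The values for Col3a1, Col5a2 and Col1a2 rest on 0, 1 and 2 reads in untreated 01 and 02 and depend on the prior count.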

How the results depend on the processing

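On the group alone, 0 members passed under RLE, total counts only, no low-count filter, at least 50 counts in 3 libraries, limma-voom and summed close pairs. DESeq2 gave 1 and the likelihood ratio test 1 (each Col27a1), the 5-library part alone 23 and the deposited block 1. Leaving out each library in turn gave 0 to 17, the 17 without untreated 03. With the deposited block, 1 member passed under RLE, total counts only, at least 50 counts and limma-voom. No low-count filter gave 4, DESeq2 7, the likelihood ratio test 6, summed close pairs 0 and the 5-library part alone 23. Leaving out each library gave 0 to 23, with 0 without untreated 01, untreated 02 or post-caerulein 03, and 23 without untreated 03 or post-caerulein 04, whose removal leaves the block to 1 library. The 23 members of the 5-library part became 11 with at least 50 counts, which tests 14 members, 9 with close pairs summed, and 2 to 25 with each library left out. The 14 members that differed between the parts became 8 under total counts only, 22 by the likelihood ratio test, 0 with close pairs summed, and 0 to 23 with each library left out, 0 without untreated 01 or 02, 23 without post-caerulein 01 and 8 and 7 without post-caerulein 02 and 03. Apart from the smaller number of libraries or genes in a setting, the cause was not tested.

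Replicate numbers do not pair the libraries. Same-numbered deviations from group means correlated at 0.372, 0.141 and -0.21 across genes. With the replicate block 0 members passed, both on the group alone and in place of the deposited block.

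Log2 differences with the block that changed sign were all far from passing. They were -0.064 for Lox and -0.39 for Mmp2 under limma-voom, 0.063 for Cd44 with close pairs summed, 0.15 for Cdh11 in the 5-library part alone, and -0.26, -0.18 and -0.11 for Zeb1, Zeb2 and Loxl2 with the replicate block. With each library left out they ranged from -0.038 to 1.29 for Zeb1, from -0.18 to 5.46 for Zeb2, from -0.45 to 0.18 for Cdh11, from -0.085 to 2.51 for Mmp2, from -0.18 to 0.082 for Cd44 and from -0.54 to 0.51 for Fbln1. Depth limits the genes under 1 CPM most.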
